A study of Mus musculus with 6 samples.

Results

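Neat1 and Malat1 are abundant long noncoding RNAs of the nucleus, and they were read here together with 7 genes for proteins of the paraspeckle, a nuclear body built on Neat1. The 9 genes were taken by symbol from 23284 gene symbols in the count files: Neat1, Malat1, Sfpq, Nono, Pspc1, Tardbp, Rbm14, Hnrnpk and Cpsf6. All 9 had enough counts to be among the 13039 genes tested. The set was selected on the counts of Neat1 and Malat1, which were lower in every knockdown library, so their difference between the groups is described below and carries no test. The protein genes were added for their role in the paraspeckle.

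The study measured gene expression by RNA-seq of total RNA, with the TruSeq RNA kit, in MIN6, a cell line from a mouse insulinoma that keeps many beta cell traits. The Paupar KD group comprised 3 libraries of MIN6 cells given an antisense oligonucleotide (ASO) against Paupar, a long noncoding RNA made beside the Pax6 gene. The control KD group comprised 3 libraries of MIN6 cells given a control ASO. All 6 libraries came from the same unmodified line, the labels name neither a time nor a dose, and 0 symbols matched Paupar, whose own level is therefore not analysed here.

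Paraspeckles form when the long form of Neat1 is coated by the paired RNA-binding proteins SFPQ, NONO and PSPC1, and further proteins such as RBM14 complete the body. The short form of Neat1 ends at an upstream polyadenylation site and does not build paraspeckles by itself. In human cells the cleavage factor that contains CPSF6 favours the short form, and HNRNPK favours the long form by opposing that factor. Malat1 collects in the neighbouring nuclear speckles, which are rich in splicing factors. The mature 3′ ends of Malat1 and long Neat1 are not made by a polyadenylation signal. RNase P cuts beneath a transfer-RNA-like fold, and U-rich stretches close a triple helix over an A-rich stretch that protects the end.

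Neat1 and Malat1 lie side by side on mouse chromosome 19 of build mm9, both on the minus strand and 22.0 kb apart. Neat1 spans 5824708 to 5845478 and has an annotated transcript of 20.8 kb (Neat1-001) and a spliced transcript of 3004 bases (Neat1-002) that ends near the known short form. Malat1 spans 5795690 to 5802671, and its longest annotated transcript has 6982 bases. The counts give 1 value per gene symbol, so the short and long forms of Neat1 cannot be separated in them. The last 100 bases of Neat1-002 are shown because the choice between the forms is made there. Capitals mark the polyadenylation signal AATAAA and the letters TGTA, the DNA form of the UGUA word known to bind the cleavage factor of CPSF6 (chr19:5842307-5842406, minus strand).
Short Neat1 3′ end: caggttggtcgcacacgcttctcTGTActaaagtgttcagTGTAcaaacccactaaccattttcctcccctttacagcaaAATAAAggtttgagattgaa

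AATAAA stood once in this window, 14 bases before the annotated end, and TGTA stood at 2 places, 73 and 56 bases before it. Searched on the transcribed strand only, AATAAA was present in the last 100 bases of 59.4% of 20274 protein-coding transcript ends, and 2 or more copies of TGTA in 17.7%. AATAAA and TGTA do not overlap in this window. Long Neat1 and Malat1 share 3 longer runs at their other end. The windows below hold 160 bases around the A-rich stretch, with sequence of the transfer-RNA-like part after it, and capitals mark every run of at least 10 bases that both windows contain (Malat1 chr19:5795922-5796081 and Neat1 chr19:5824648-5824807, minus strand).
Malat1 3′ end: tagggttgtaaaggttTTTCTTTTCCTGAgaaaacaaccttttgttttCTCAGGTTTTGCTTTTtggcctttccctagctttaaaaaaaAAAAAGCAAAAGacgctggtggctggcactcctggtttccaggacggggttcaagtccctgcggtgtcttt
Neat1 3′ end: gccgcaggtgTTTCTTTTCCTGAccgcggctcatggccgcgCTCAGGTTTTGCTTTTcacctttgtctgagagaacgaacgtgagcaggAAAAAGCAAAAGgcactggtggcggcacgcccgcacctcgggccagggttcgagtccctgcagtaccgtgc

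The runs stood in the same order in both RNAs: a U-rich run of 13 bases, a second U-rich run of 16 bases and the A-rich run of 12 bases. Among the last 160 bases of the same 20274 transcript ends, TTTCTTTTCCTGA was present in 1, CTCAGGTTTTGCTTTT in 0 and AAAAAGCAAAAG in 1, again on the transcribed strand only. Those stretches stop at the annotated transcript end, while the windows above run past the A-rich stretch into the transfer-RNA-like part, so they are not placed alike.

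The libraries held 16973622 to 23434166 counts in Paupar KD and 22463557 to 28693863 in control KD, and each of the 9 genes had at least 1391 counts in every library. Levels are given as CPM from edgeR, in which counts are set relative to the library total after scaling with TMM factors, and means are given ± SD over the 3 libraries of a group. The Paupar KD libraries differed among themselves far more than the controls, with a biological coefficient of variation of 18.8% in Paupar KD against 4.95% in control KD. Of the markers of the line, Ins1, Ins2, Iapp, Pdx1, Nkx6-1 and Slc2a2 together ranged over 34918 to 52820 CPM in Paupar KD and 29328 to 33436 CPM in control KD. The 11 markers of other cell types together ranged over 45.4 to 130 CPM in Paupar KD and 71.6 to 81.4 CPM in control KD, most of it Gcg, and Prss1, Ptprc and Vim were at 0 in all libraries. Of the 6 and of the 4 tested among the 11, edgeR and limma-voom called 0, with 1 and 2 at an unadjusted p under 0.05 in edgeR, where 17.7% of all genes tested were. DESeq2 called Cd68 lower, at only 1.10 ± 0.35 CPM in Paupar KD and 2.46 ± 0.02 CPM in control KD, where it called 1.79% of all genes lower. Without Paupar KD replicate 1 edgeR called Slc2a2 lower, where it called 0.972% of all genes lower, and without replicate 3 Cd68, where it called 5.67%. All Paupar KD libraries were above the controls for 2 of the 6 and 0 of the 4, beside 13.7% of all genes. They were below the controls for 0 of the 6 and 2 of the 4, beside 13.3%. The part of these markers in the results was not tested.

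Neat1 was at 1025, 1367 and 690 CPM in Paupar KD replicates 1 to 3, against 1644, 1792 and 1769 CPM in control KD replicates 1 to 3. All 3 Paupar KD libraries lay below all 3 controls, and replicate 3 lay farthest below. The means were 1028 ± 338 CPM in Paupar KD and 1735 ± 79.9 CPM in control KD (SD, n = 3 each), a log2 fold change of -0.76 ± 0.22 (SE). Malat1 was at 295, 526 and 317 CPM in Paupar KD replicates 1 to 3, against 659.7, 582 and 596 CPM in control KD replicates 1 to 3. The groups did not overlap here either, and replicate 2 came closest to the controls for both RNAs. Malat1 averaged 379 ± 128 CPM in Paupar KD and 612 ± 41.5 CPM in control KD (SD, n = 3 each), a log2 fold change of -0.69 ± 0.21 (SE). Over all genes tested, 13.3% had all Paupar KD values below all control values. With the members picked for this pattern, nothing is read from their standing in it. In bulk RNA, fewer cells that make an RNA and less of it per cell cannot be told apart.

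**Figure D1:**
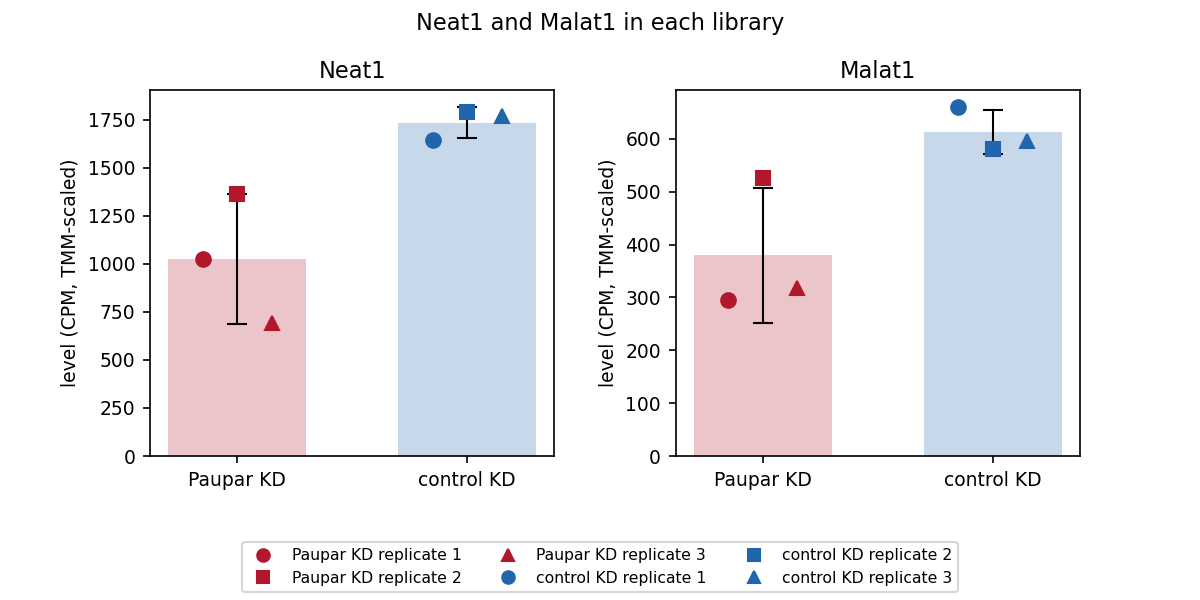
Level of Neat1 (left) and Malat1 (right) in CPM for each Paupar KD and control KD library. Bars are means and error bars SD over 3 libraries; the Paupar KD points spread from 690 to 1367 CPM for Neat1 and from 295 to 526 CPM for Malat1, all below the controls.

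The RNAs were not lower to the same extent in the same library. In Paupar KD replicates 1 to 3 Neat1 stood at 0.59, 0.79 and 0.40 of its control mean, and Malat1 at 0.48, 0.86 and 0.52. Neat1 was thus lowest in replicate 3 and Malat1 in replicate 1. The ratio of Neat1 to Malat1 counts within a library needs no scaling, and it was 3.48, 2.60 and 2.18 in Paupar KD replicates 1 to 3 and 2.49, 3.08 and 2.97 in control KD replicates 1 to 3. The mean ratio was 2.75 ± 0.66 in Paupar KD and 2.85 ± 0.31 in control KD (SD, n = 3 each), and the Paupar KD values lay on both sides of the controls. The coefficient of variation among Paupar KD libraries was 32.9% for Neat1 and 33.6% for Malat1, beside a median of 11.6% over the 5157 genes at a mean of 50 CPM or more. Among control libraries it was 4.61% for Neat1 and 6.78% for Malat1, beside a median of 3.72%.

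With the RNAs picked for lying below the controls in every Paupar KD library, leaving out 1 of these could change only the size of the differences. The log2 fold change of Neat1 was -0.76 without Paupar KD replicate 1, -1.02 without replicate 2 and -0.54 without replicate 3. That of Malat1 was -0.54, -1.01 and -0.58 in the same order.

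None of the 7 protein genes passed edgeR's quasi-likelihood test between the groups at an adjusted p of 0.05, which 0.046% of all genes tested passed. At an unadjusted p under 0.05 there were 0 of 7, beside 17.7% of all genes. DESeq2 called 0 of 7, where it called 3.9% of all genes, and limma-voom called 0 of 7, where it called 0.046%. Their log2 fold changes ran from -0.13 to 0.20 with a median of -0.03, beside 0.01 over all genes, and the groups lay apart for 0 of the 7, beside 27.1% of all genes. The widest 95% interval of a log2 fold change among them, that of Pspc1, reached from -0.15 to 0.48.

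The 3 genes of the SFPQ, NONO and PSPC1 family, whose proteins pair with each other on Neat1, come first by role. Sfpq (chromosome 4, 126698568 to 126714257, plus strand) was at 322, 322 and 272 CPM in Paupar KD replicates 1 to 3, against 312, 309 and 328 CPM in control KD replicates 1 to 3. Replicate 3 alone lay below the controls (log2 fold change -0.05 ± 0.10 SE, edgeR adjusted p = 0.805). Nono (chromosome X, 98624657 to 98643930, plus strand) was at 389, 365 and 339.7 CPM in Paupar KD, against 338, 354 and 347 CPM in control KD. Paupar KD replicates 1 and 2 were above all controls, and replicate 3 was among them (log2 fold change 0.07 ± 0.09 SE, edgeR adjusted p = 0.679). Pspc1 (chromosome 14, 57341278 to 57397153, minus strand), which encodes the least abundant of the 3 transcripts per kilobase, was at 86.9, 81.2 and 59.7 CPM in Paupar KD, against 68.6, 67.9 and 67.1 CPM in control KD. Paupar KD replicates 1 and 2 were above the controls and replicate 3 below them (log2 fold change 0.16 ± 0.14 SE, 95% interval -0.15 to 0.48, edgeR adjusted p = 0.554).

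Rbm14 and Tardbp encode further proteins of the body. RBM14 is needed for paraspeckle assembly, and TDP-43, the product of Tardbp, binds UG-rich RNA and Neat1. Rbm14 (chromosome 19, 4784299 to 4811634, minus strand) was at 106, 82.3 and 72.8 CPM in Paupar KD replicates 1 to 3, against 75.5, 73.2 and 78.2 CPM in control KD replicates 1 to 3. The value of replicate 1 was 1.40 of the control mean and that of replicate 3 was 0.96 of it (log2 fold change 0.20 ± 0.14 SE, edgeR adjusted p = 0.455). Tardbp (chromosome 4, 147986491 to 148001128, minus strand) was at 264, 259.9 and 223 CPM in Paupar KD, against 246, 261 and 254 CPM in control KD. Its replicate 3 was the only Paupar KD library below all controls (log2 fold change -0.03 ± 0.09 SE, edgeR adjusted p = 0.906).

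Hnrnpk and Cpsf6 encode the 2 proteins that act in opposite ways on the short Neat1 end shown above. Hnrnpk (chromosome 13, 58492503 to 58504704, minus strand) was at 283, 305 and 289 CPM in Paupar KD, against 311 and 308 CPM in control KD replicates 1 and 2 and 279.6 CPM in replicate 3. Its Paupar KD values all lay within the range of the controls (log2 fold change -0.04 ± 0.09 SE, edgeR adjusted p = 0.855). Cpsf6 (chromosome 10, 116781724 to 116814029, minus strand) was at 117, 146 and 127 CPM in Paupar KD, against 139, 143 and 144 CPM in control KD. Paupar KD replicates 1 and 3 were below the controls and replicate 2 above them (log2 fold change -0.13 ± 0.10 SE, edgeR adjusted p = 0.501). Nudt21, the partner of CPSF6 that reads UGUA, averaged 7.61 ± 0.98 CPM in Paupar KD and 8.08 ± 0.47 CPM in control KD (SD, n = 3 each), and Cpsf7, the alternative partner, 147 ± 12.5 CPM in Paupar KD and 178 ± 2.38 CPM in control KD. Neither passed the test (edgeR adjusted p = 0.774 and 0.206).

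The Paupar KD libraries took a partly repeated order across the protein genes. Replicate 3 was the lowest of the 3 for 5 of the 7 protein genes, beside 36.3% of all genes tested, and replicate 1 the highest for 5 of the 7, beside 40.3%. The latter count includes Sfpq, at 322.18 CPM in replicate 1 and 322.12 CPM in replicate 2, which are not told apart. Replicate 1 was the lowest for Hnrnpk and Cpsf6, beside 39.6% of all genes tested. Without Paupar KD replicate 3, Sfpq and Tardbp turned to small positive log2 fold changes (0.03 and 0.05), and Pspc1 reached 0.31 ± 0.08 SE, with an edgeR adjusted p of 0.0510. Among the controls the protein genes had coefficients of variation of 1.12% to 5.82%, lowest for Pspc1 and highest for Hnrnpk, and in Paupar KD 3.86% for Hnrnpk to 19.5% for Rbm14.

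**Figure D2:**
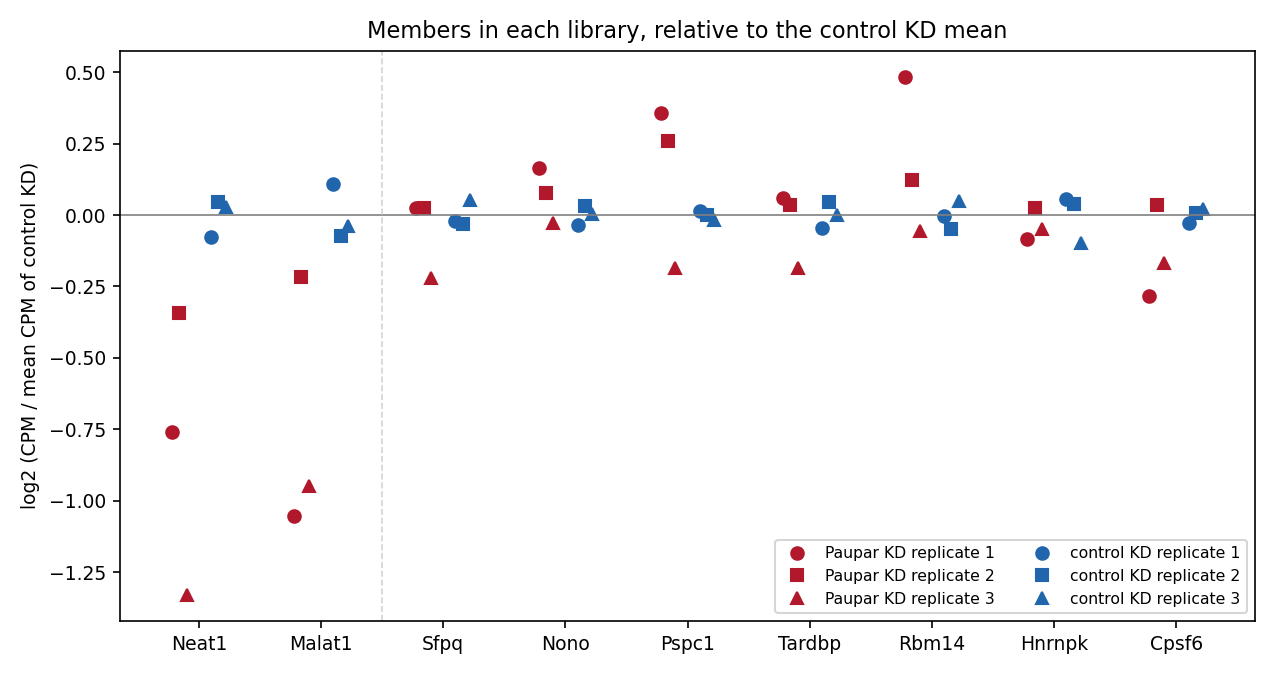
Each of the 9 genes in each library as log2 of its CPM over the control KD mean, with Paupar KD points left of control KD points for each gene. Neat1 and Malat1, left of the dashed line, have all Paupar KD points below 0, down to -1.33, while the protein genes have Paupar KD points on both sides, from -0.29 to 0.48.

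Set per kilobase of annotated exon, the counts of the RNAs stood among those of the more abundant protein messages. The mature 3′ ends of Malat1 and long Neat1 are not made by a polyadenylation signal. Whether the libraries captured such RNAs as well as messages was not tested. In control KD Hnrnpk averaged 100.1 ± 5.82 CPM per kilobase, Malat1 87.7 ± 5.95, Neat1 83.5 ± 3.85 and Nono 79.2 ± 1.85 (SD, n = 3). The control ranges of neighbours in this order overlapped, so these 4 were not told apart from their neighbours. Below them stood Sfpq at 66.7 ± 2.14, Tardbp at 33.9 ± 1.06, Cpsf6 at 21.8 ± 0.38, Pspc1 at 16.95 ± 0.19 and Rbm14 at 13.9 ± 0.47 CPM per kilobase, each range clear of the next. In Paupar KD, Malat1 at 54.3 ± 18.3 and Neat1 at 49.5 ± 16.3 CPM per kilobase came after Hnrnpk, Nono and Sfpq, at 97.7 ± 3.78, 83.3 ± 5.60 and 64.4 ± 6.16. The Paupar KD ranges of Malat1 (42.3 to 75.4) and Neat1 (33.2 to 65.8) overlapped that of Sfpq (57.2 to 67.9), so neither was told apart from Sfpq. The lower place of both RNAs restates the values they were picked on.

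The place of Neat1 rests on its assumed length. With the 3004 bases of Neat1-002 in place of the 20771 bases of the gene, Neat1 stood at 342 ± 113 CPM per kilobase in Paupar KD and 578 ± 26.6 in control KD, above every other member in both groups. With the longest transcript of each gene in place of all its exons, Nono led the control order at 135 ± 3.17 CPM per kilobase, and Rbm14 moved above Pspc1 and Cpsf6. Which gene models were counted is not given in the sources used here.

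**Figure D3:**
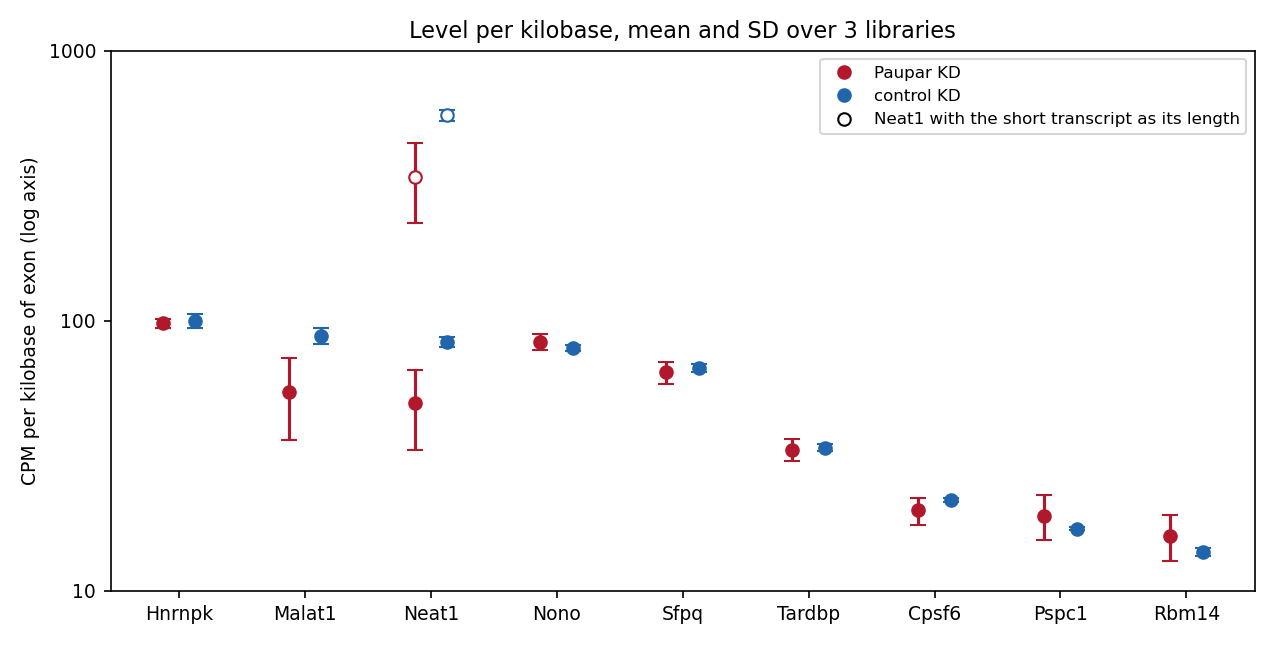
Level of each member as CPM per kilobase of exon on a log axis, as mean and SD over 3 libraries, ordered by the control KD mean. Filled points use all annotated exons and open points use the short Neat1 transcript, which places Neat1 at 342 in Paupar KD and 578 in control KD.

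Genes that encode other paraspeckle proteins gave 0 calls in 25 tested (edgeR, 6 at an unadjusted p under 0.05 beside 17.7% of all genes, 0 with DESeq2 and 0 with limma-voom). Their median log2 fold change was -0.04, with 5 below and 2 above the controls in all libraries, 20.0% and 8.0%, beside 13.3% and 13.7% of all genes. The 3 with the highest mean CPM over all 6 libraries were Hnrnph1 (485 ± 118 CPM in Paupar KD and 435 ± 2.36 CPM in control KD), Hnrnpm (299 ± 37.7 CPM in Paupar KD and 258 ± 4.80 CPM in control KD) and Ubap2l (261 ± 7.79 CPM in Paupar KD and 270.5 ± 10.7 CPM in control KD). Hnrnph1 and Hnrnpm encode RNA-binding proteins that act in splicing, and their Paupar KD values were lowest in replicate 3, as for most of the protein genes above. Those of Ubap2l were lowest in replicate 1. The largest positive log2 fold change was that of Hnrnph3, at 17.6 ± 4.61 CPM in Paupar KD and 12.8 ± 0.95 CPM in control KD (0.46 ± 0.19 SE, edgeR adjusted p = 0.270). The largest negative one was that of Akap8l, at 43.2 ± 5.68 CPM in Paupar KD and 55.1 ± 1.91 CPM in control KD (-0.35 ± 0.11 SE, edgeR adjusted p = 0.197). Without Paupar KD replicate 3, edgeR called 4 of the 25 higher, Cirbp, Hnrnph1 and Hnrnph3 among them, and Hnrnpf lower, where it called 4.65% of all genes higher and 5.67% lower, 10.3% together.

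Nuclear speckle genes, the list nearest to the home of Malat1, had all Paupar KD values below the controls for 10 of 23 tested, and none passed with edgeR. Of 23 tested, the log2 fold change was negative for 17 and positive for 6, and the median was -0.15. Over all 13039 genes tested, 6387 had a negative and 6652 a positive log2 fold change. Those 10 made up 43.5%, beside 13.3% of all genes. The list was chosen with earlier results of these data known, so nothing about speckle genes as a set is read from these shares. In the other direction, 1 of 23 had all Paupar KD values above the controls (Rnps1, chosen after its values were seen), 4.35% beside 13.7% of all genes. With edgeR 0 passed and 8 had an unadjusted p under 0.05, beside 17.7% of all genes. DESeq2 called 4 lower, Clk1, Clk4, Sfrs18 and Srrm2, where it called 1.79% of all genes lower, and limma-voom called 0. Without Paupar KD replicate 1 edgeR called Clk1 lower, where it called 0.972% of all genes lower, and without replicate 3 Clk1 and Sfrs18, where it called 5.67%. Clk1, a kinase that phosphorylates splicing factors of the SR family, was at 84.5, 104 and 80.8 CPM in Paupar KD replicates 1 to 3, against 141, 143 and 136 CPM in control KD replicates 1 to 3. The groups lay apart (log2 fold change -0.64 ± 0.11 SE, edgeR adjusted p = 0.0803). Srrm2, a large scaffold protein of the speckle, was at 345, 527 and 463 CPM in Paupar KD, against 631, 654 and 778 CPM in control KD (log2 fold change -0.63 ± 0.16 SE, edgeR adjusted p = 0.151). Son, the partner scaffold, averaged 575 ± 108 CPM in Paupar KD and 686 ± 41.5 CPM in control KD, and Sf3b1, of the core spliceosome, 471 ± 39.3 CPM in Paupar KD and 524 ± 20.0 CPM in control KD, both with overlapping groups. U2af2, whose product acts at the 3′ splice site, had the highest log2 fold change of the list, at 174 ± 29.6 CPM in Paupar KD and 150.5 ± 3.71 CPM in control KD (0.21 ± 0.12 SE, edgeR adjusted p = 0.391).

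Other long noncoding RNAs were read as a further comparison. Of 29 listed, 21 were tested, 17 with a negative and 4 with a positive log2 fold change and a median of -0.27. Over all 13039 genes tested, 6387 were negative and 6652 positive. In this list 6 had all Paupar KD libraries below the controls, 28.6% beside 13.3% of all genes. This list too was chosen with earlier results of these data known, so nothing is read from its shares. All Paupar KD libraries were above the controls for 2, 9.52% beside 13.7%. With edgeR 0 passed, with 7 at an unadjusted p under 0.05 beside 17.7% of all genes, limma-voom called 0, and DESeq2 called 2 lower (1700020I14Rik and B230206F22Rik) and 1 higher (Snhg8), where it called 1.79% of all genes lower and 2.11% higher. The lowest log2 fold change was that of 1700020I14Rik, the RNA also named Oip5os1, at 14.8, 17.4 and 27.9 CPM in Paupar KD replicates 1 to 3, against 42.8, 46.4 and 42.9 CPM in control KD. The groups lay apart (-1.13 ± 0.21 SE, edgeR adjusted p = 0.0999). Without Paupar KD replicate 1 edgeR called 1700020I14Rik lower, where it called 0.972% of all genes lower. Without replicate 3 it called 1700020I14Rik lower and Snhg8 higher, where it called 5.67% of all genes lower and 4.65% higher. Tug1 averaged 187 ± 30.5 CPM in Paupar KD and 246 ± 16.3 CPM in control KD, while Peg13 at 308 ± 45.6 CPM in Paupar KD and 301 ± 6.93 CPM in control KD and 2900097C17Rik (Norad) at 136 ± 17.3 CPM in Paupar KD and 146 ± 6.06 CPM in control KD overlapped. The highest log2 fold change was that of Rmrp, an RNA without a poly(A) tail, at only 1.04 ± 0.49 CPM in Paupar KD and 0.38 ± 0.17 CPM in control KD (1.47 ± 0.47 SE, edgeR adjusted p = 0.201).

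The enzymes that cut the 3′ ends shown above, RNase P and RNase Z (Elac2), and Mettl16, which binds the Malat1 triple helix, gave 0 calls in 13 tested (edgeR, 1 at an unadjusted p under 0.05 beside 17.7% of all genes, 0 with DESeq2 and 0 with limma-voom). Their median log2 fold change was 0.07. Pop5, a protein subunit of RNase P, averaged 72.9 ± 19.2 CPM in Paupar KD and 56.2 ± 2.56 CPM in control KD, Mettl16 48.8 ± 3.35 CPM in Paupar KD and 48.7 ± 1.84 CPM in control KD, and Elac2 37.1 ± 2.02 CPM in Paupar KD and 42.3 ± 2.09 CPM in control KD. The ends of the range were Rpph1, the RNA subunit of RNase P, at 1.36 ± 0.40 CPM in Paupar KD and 0.53 ± 0.37 CPM in control KD (1.39 ± 0.56 SE, edgeR adjusted p = 0.261), and Rpp40 at 8.42 ± 3.21 CPM in Paupar KD and 9.78 ± 0.59 CPM in control KD (-0.21 ± 0.24 SE, edgeR adjusted p = 0.684). Cleavage and polyadenylation factors gave 0 calls in 14 tested (edgeR, 1 at an unadjusted p under 0.05 beside 17.7% of all genes, 0 with DESeq2 and 0 with limma-voom), with a median of -0.04 and values from Pabpn1 at 111 ± 10.6 CPM in Paupar KD and 124 ± 12.0 CPM in control KD to Cstf1 at 53.3 ± 4.44 CPM in Paupar KD and 45.2 ± 2.34 CPM in control KD. The poly(A) polymerase gene Papola (293 ± 22.5 CPM in Paupar KD and 306 ± 2.04 CPM in control KD), Sympk (209.6 ± 13.8 CPM in Paupar KD and 221 ± 11.2 CPM in control KD) and Fip1l1 (192 ± 10.4 CPM in Paupar KD and 196 ± 4.17 CPM in control KD) had the highest mean CPM over all 6 libraries.

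The hnRNP relatives of Hnrnpk also gave 0 calls in 14 tested (edgeR, 2 at an unadjusted p under 0.05 beside 17.7% of all genes, 0 with limma-voom, and 1 lower, Hnrnpa3, with DESeq2 beside 1.79% of all genes), with a median of 0.04. Hnrnpa2b1 averaged 1138 ± 239 CPM in Paupar KD and 1148 ± 45.4 CPM in control KD, and its Paupar KD values of 1321, 1225 and 867 CPM put replicate 3 lowest. Of the others named from this list, replicate 3 was lowest for Hnrnpab, and replicate 1 for Hnrnpu and Hnrnpa3. Hnrnpu averaged 770.2 ± 109 CPM in Paupar KD and 793 ± 6.25 CPM in control KD. Hnrnpab at 647 ± 30.0 CPM in Paupar KD and 565 ± 17.2 CPM in control KD had the highest log2 fold change (0.20 ± 0.08 SE, edgeR adjusted p = 0.271). The lowest was that of Hnrnpa3 at 78.2 ± 9.98 CPM in Paupar KD and 104 ± 5.16 CPM in control KD (-0.41 ± 0.11 SE, edgeR adjusted p = 0.161). Without Paupar KD replicate 3 edgeR called Hnrnpa3 lower, where it called 5.67% of all genes lower.

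**Figure D4:**
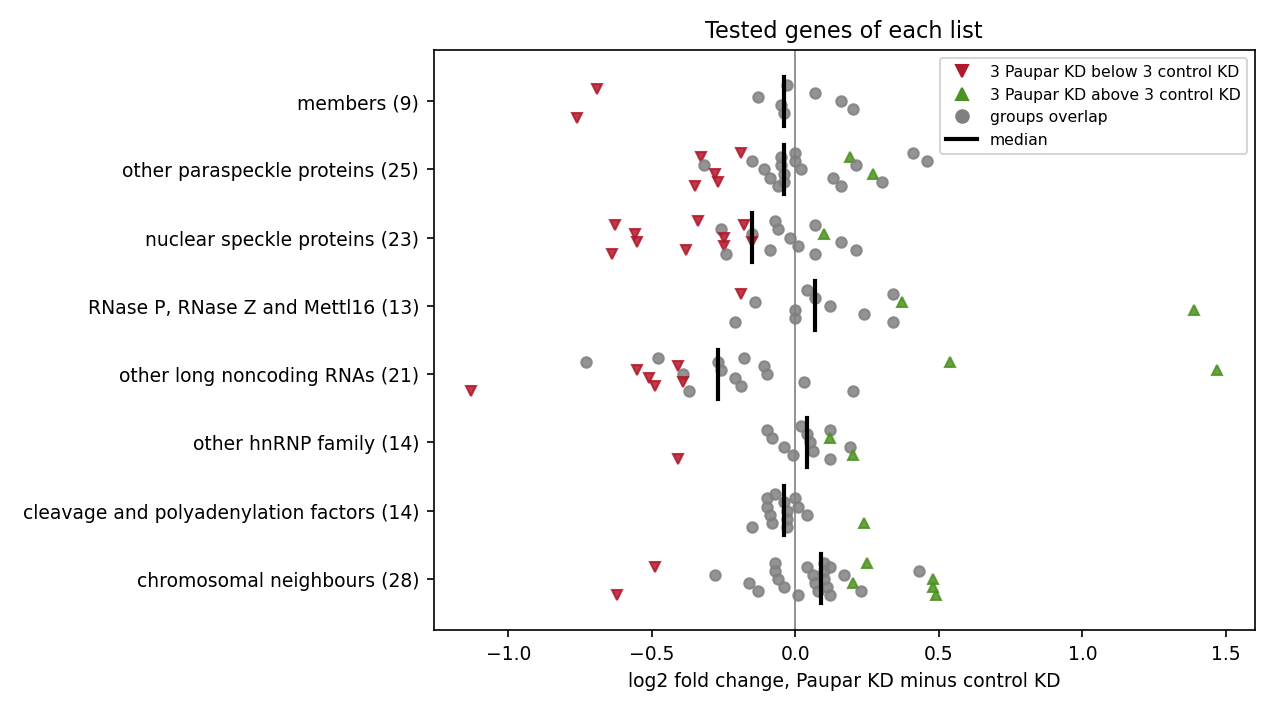
Log2 fold change, Paupar KD minus control KD, of each tested gene by list, with the number tested in brackets and the median as a black bar. Triangles mark genes whose groups lie apart: 10 of 23 nuclear speckle genes have all Paupar KD libraries below the controls, and medians run from -0.27 for other long noncoding RNAs to 0.09 for chromosomal neighbours. The lists were chosen with earlier results of these data known, so they carry no test.

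Genes beside Neat1 and Malat1 were mostly not lower in Paupar KD. Of 32 genes of the count files within 250 kb of the pair, 28 were tested, 19 of them with a positive and 9 with a negative log2 fold change, and the median was 0.09. Over all 13039 genes tested, 6652 were positive and 6387 negative, with a median of 0.01. With edgeR 0 passed, with 6 at an unadjusted p under 0.05 beside 17.7% of all genes, limma-voom called 0, and DESeq2 called 1 higher (Znhit2-ps), where it called 2.11% of all genes higher. Without Paupar KD replicate 3 edgeR called Znhit2-ps higher, where it called 4.65% of all genes higher. All Paupar KD libraries were below the controls for 2 genes, 7.14% beside 13.3% of all genes, and above them for 5, 17.9% beside 13.7%. Frmd8, the nearest tested gene beyond the 5′ end of Neat1 at a gap of 4224 bases, was at 52.1, 36.9 and 40.1 CPM in Paupar KD replicates 1 to 3, against 39.1, 37.6 and 38.2 CPM in control KD (log2 fold change 0.17 ± 0.13 SE, edgeR adjusted p = 0.521). The lowest log2 fold change was that of Ehbp1l1 at 1.71 ± 0.33 CPM in Paupar KD and 2.62 ± 0.07 CPM in control KD (-0.62 ± 0.21 SE, edgeR adjusted p = 0.223) and the highest that of Rnaseh2c, a subunit of RNase H2, at 47.4 ± 12.5 CPM in Paupar KD and 33.7 ± 5.25 CPM in control KD (0.49 ± 0.19 SE, edgeR adjusted p = 0.253).

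**Figure D5:**
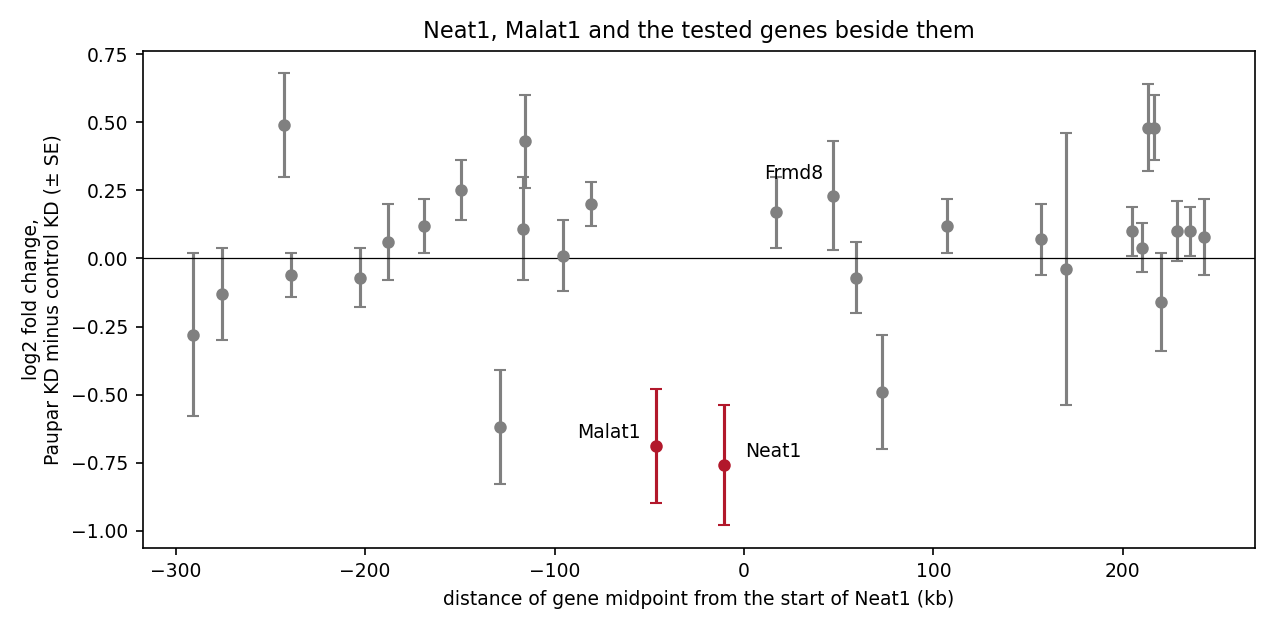
Log2 fold change, Paupar KD minus control KD, with its SE, against the distance of each gene's midpoint from the start of Neat1 in kb; the left side is the 3′ side of both RNAs. Malat1 and Neat1 (red) sit at -0.69 and -0.76, and Frmd8, the nearest tested gene on the 5′ side of Neat1, at 0.17.

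Likeness of pattern was measured as the root mean square difference between centred log2 CPM over the 6 libraries, among genes at a mean of 5 CPM or more, where the median gene stood 0.52 from Neat1 and 0.47 from Malat1. The RNAs stood 0.22 from each other, which placed Malat1 as number 19 in the order from Neat1 and Neat1 as number 40 in the order from Malat1. The 5 genes nearest to Neat1 were Leng8 (0.12), Rgs11 (0.13), Lrp8 (0.15), Sfrs18 (0.16) and Dusp15 (0.16). Leng8 had 127, 143 and 70.2 CPM in Paupar KD replicates 1 to 3, against 174, 166 and 184 CPM in control KD, with replicate 3 lowest as for Neat1. The 5 nearest to Malat1 were Hist2h3c1 (0.094), Clk4 (0.14), Wsb1 (0.14), Nrbp2 (0.15) and Ptprd (0.16). Clk4, a kinase related to CLK1, had 39.0, 57.6 and 43.7 CPM in Paupar KD, against 71.4, 67.4 and 68.0 CPM in control KD, with replicate 1 lowest as for Malat1. Sfrs18, now called Pnisr, and Clk4 are both on the nuclear speckle list. That list was chosen with earlier results of these data known, so nothing is read from their place here. Of the protein genes, Cpsf6 came nearest to either RNA, at 0.42 from Neat1 and 0.35 from Malat1, and Rbm14 stood farthest, at 0.56 and 0.58. These distances come from the libraries in which the RNAs were picked and carry no test. Hist2h3c1 has near-identical histone copies, so its reads may be divided among them.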

How the data were processed

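Per the labels, 3 MIN6 libraries of each group were sequenced. The authors deposited raw read counts per gene symbol, a table for each library. The submitters' processing notes list build mm9 and the tools CASAVA 1.8.2, HISAT2, HTSeq and DESeq2. Strand setting, annotation and the handling of reads with several matches are not stated in what was used here. Reads of overlapping genes therefore cannot be separated: Gm20417 lies antisense inside Malat1, Masp2 overlaps Tardbp, and Rmi1 and Mir7-1 overlap Hnrnpk. On the same strand, Gm12940 overlaps Sfpq and C030013D06Rik overlaps Pspc1. Gm20417, Gm12940 and C030013D06Rik have no symbol in the count files.

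Counts were filtered with filterByExpr (minimum count 10), scaled by TMM and tested in edgeR 4.0.16 (R 4.3.3, quasi-likelihood, robust, Benjamini-Hochberg at 0.05 over 13039 genes). SEs were taken as the absolute log2 fold change over the root of edgeR's F value. DESeq2 1.42.0 and limma-voom (limma 3.58.1) were alternatives. The test was checked on simulated counts that gave both groups the same spread. The groups here differ in spread, and the check does not cover that. Whether the replicates were separate cultures is not labelled, and the p-values cover only the spread seen among libraries, which may be technical. No 2 libraries of a group agreed within sampling noise (chi-square per gene 3.46 or more).

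The members and lists were chosen with earlier results of these data known. Named were the members, and per list any gene past the threshold, the 3 with the highest mean CPM and both extremes of fold change, for neighbours the nearest on each side and both extremes, and 5 genes by likeness to each RNA. Nudt21, Cpsf7 and genes called only by an alternative were named after their values were seen. Exon lengths and sequences are from GENCODE M1 on NCBIM37 (mm9). Some genes that this rule would name are not reported here.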

Additional observations from a re-analysis of the deposited data

How the results depend on the processing

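The log2 fold changes ran from -1.02 to -0.54 for Neat1 and from -1.01 to -0.54 for Malat1, with both ends from leaving out 1 library, and their sign was set by how the RNAs were picked. Among the protein genes the direction turned for Sfpq (0.03, range -0.10 to 0.03 on leaving out single libraries) and Tardbp (0.05, range -0.08 to 0.05), both without Paupar KD replicate 3 and neither called, and Tardbp came to 0.0 with upper-quartile scaling. Over all genes, the edgeR count of 5 higher and 1 lower was replaced by 1 and 0 at an adjusted p of 0.01, and by 55 and 38 at 0.10. Upper-quartile scaling gave 3 and 0, and testing all 17398 genes with any count gave 36 and 24. A minimum mean of 1 CPM gave 2 and 0, and DESeq2 gave 275 and 233, and the cause was not tested. Single libraries decided this count, which ran from 0 to 611 higher and 0 to 745 lower: 123 and 128 without Paupar KD replicate 1, 611 and 745 without replicate 3, and 0 in both directions without any other library, where 1130 to 2062 genes had an unadjusted p under 0.05 in edgeR. With a replicate block, edgeR called 1 higher and 0 lower genes and none of the 7 protein genes. Deviations of libraries with a shared number correlated at 0.11, 0.035 and 0.03, so the numbers are not shown to pair them, and Paupar KD replicate 2 had another control than its own-numbered one as its best match (0.075). With 3 libraries a group, the spread seen in Paupar KD limits the precision of every fold change. The short Neat1 length was tried after seeing the data, and it moved the control level of Neat1 to 578 CPM per kilobase, while the longest transcripts moved those of Sfpq, Nono, Pspc1 and Rbm14 to 91.3, 135, 23.7 and 26.9.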
